A study of Mus musculus with 6 samples.

Results

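Of 85174 regions of open chromatin obtained by merging the peak lists of 6 ATAC-seq libraries, 5631 (6.61%) carried a peak in every library and lay at an end of exactly 1 protein-coding gene. A region was placed at a gene end when it overlapped the window of 1000 bases on each side of an annotated start or end of the gene in mm10, and regions that touched the windows of several genes were kept apart. These constitutive regions at a single gene's end made up 27.1% of the 20742 regions present in all 6 libraries. Of the other constitutive regions, 1370 lay at 2 or more gene ends, 7344 inside gene bodies and 6397 between genes. The regions were thus chosen by the peak calls of all 6 libraries and by position. Presence in all 6 libraries and place at a gene end are therefore descriptions here and were not tested.

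ATAC-seq marks open chromatin by the insertions of the Tn5 transposase. The libraries came from primary mouse vascular smooth muscle cells, which contract the walls of arteries, and the study asked which open regions change when Arid3a, which binds AT-rich DNA through its ARID domain, is knocked down by RNA interference. The control group held 3 libraries of cells given a negative control, and the knockdown group 3 libraries of cells given siRNA against Arid3a, a different siRNA in each (si-Arid3a#1, si-Arid3a#2 and si-Arid3a#3, replicates 1 to 3). Each assay used 50000 cells and 30 min with Tn5, and cells were kept for 24 h after transfection. The labels also describe treatment with angiotensin II without the libraries that received it, and they leave unsaid whether replicate libraries are from separate cultures. The p-values therefore measure the spread between these libraries alone, and it may be technical. Peak lists hold no measure of Arid3a RNA or protein, and Arid3a itself was not among the genes with such a region.

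Active promoters are kept free of nucleosomes around the transcription start, which leaves them open to transposase in most cell types. Many genes that every cell needs start in CpG islands, stretches rich in G, C and the CpG dinucleotide, and are bound near the start by widely expressed factors such as SP1 and its KLF relatives, NF-Y, ETS proteins, NRF1, YY1 and ZNF143. Promoters of cell-type-specific genes more often lack a CpG island and may carry a TATA box, the binding site of TBP.

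The promoter sequences below belong to the 5 regions with the highest median fold enrichment among regions at a transcription start whose promoter is in the RefSeq table (GRCm38.p6), and they show the short sequence words counted further on. Fold enrichment is the peak caller's ratio of tags at the summit to its local background within a library, and the median is over the 6 libraries. Each stretch runs 5′ to 3′ on the gene's own strand from 200 bases before the start to 29 bases after it. Capitals mark matches, on either strand, to the SP/KLF word GGGCGG, known as the GC box, the NF-Y word CCAAT, the TBP word TATAAA or the TEAD word GGAATG. Gm10509 lies at chr17:21679677-21679906 on the plus strand, Zfp959 at chr17:55891893-55892122 on the plus strand, Ggct at chr6:54992838-54993067 on the minus strand, Pitrm1 at chr13:6547957-6548186 on the plus strand and Zfp961 at chr8:71950866-71951095 on the plus strand.
Gm10509: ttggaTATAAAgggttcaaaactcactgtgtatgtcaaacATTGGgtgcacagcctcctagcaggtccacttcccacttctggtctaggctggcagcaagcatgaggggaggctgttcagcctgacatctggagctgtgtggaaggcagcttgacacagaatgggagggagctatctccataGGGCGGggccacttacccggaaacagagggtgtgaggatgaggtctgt
Zfp959: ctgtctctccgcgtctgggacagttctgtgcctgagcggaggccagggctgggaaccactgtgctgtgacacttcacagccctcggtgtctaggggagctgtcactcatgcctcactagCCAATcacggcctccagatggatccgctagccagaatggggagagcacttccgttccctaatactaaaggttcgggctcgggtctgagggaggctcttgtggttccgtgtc
Ggct: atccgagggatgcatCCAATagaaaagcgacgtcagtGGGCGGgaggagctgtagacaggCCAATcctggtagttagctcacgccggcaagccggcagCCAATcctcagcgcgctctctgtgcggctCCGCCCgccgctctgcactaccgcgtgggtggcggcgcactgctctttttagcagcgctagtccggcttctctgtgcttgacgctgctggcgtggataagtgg
Pitrm1: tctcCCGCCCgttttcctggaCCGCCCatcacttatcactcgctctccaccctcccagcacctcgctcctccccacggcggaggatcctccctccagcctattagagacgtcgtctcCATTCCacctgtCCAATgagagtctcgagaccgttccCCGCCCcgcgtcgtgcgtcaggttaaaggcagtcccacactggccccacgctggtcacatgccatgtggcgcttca
Zfp961: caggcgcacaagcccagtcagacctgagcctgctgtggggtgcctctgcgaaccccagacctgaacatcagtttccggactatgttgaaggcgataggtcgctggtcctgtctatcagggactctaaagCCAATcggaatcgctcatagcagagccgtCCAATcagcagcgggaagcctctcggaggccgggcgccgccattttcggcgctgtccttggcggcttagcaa
All 5 stretches hold a CCAAT word, as ATTGG in Gm10509 and as CCAAT in the others. Gm10509, Ggct and Pitrm1 also hold a GC box, written CCGCCC where it lies on the opposite strand.

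Shorter stretches show, for each of 7 words, the promoter that holds it at the region with the highest fold enrichment not already printed, with only that word in capitals. They are the GC box of Cfdp1 (chr8:111854308-111854342, minus strand), the ETS word CCGGAAG of Tasp1 (chr2:140066837-140066891, minus strand), the NRF1 word of Zfp213 (chr17:23564239-23564293, minus strand), the YY1 word AAGATGGC of Mcm10 (chr2:5012864-5012918, minus strand), the ZNF143 word of Vrk1 (chr12:106010107-106010161, plus strand) the ZBTB33 word of Atf7 (chr15:102625460-102625514, minus strand) and the CArG box of Kif20b (chr19:34922132-34922186, plus strand). The CArG box is the site of serum response factor, which drives contractile genes in smooth muscle, and in Kif20b it is read on the opposite strand. The words of NRF1, ZNF143, ZBTB33 and the CArG box were searched as the capitals show them, each in that spelling only.
Cfdp1: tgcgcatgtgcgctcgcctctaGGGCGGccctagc
Tasp1: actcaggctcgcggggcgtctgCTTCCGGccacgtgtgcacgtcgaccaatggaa
Zfp213: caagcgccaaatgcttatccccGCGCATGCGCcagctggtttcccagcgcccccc
Mcm10: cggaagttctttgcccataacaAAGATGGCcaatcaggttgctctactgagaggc
Vrk1: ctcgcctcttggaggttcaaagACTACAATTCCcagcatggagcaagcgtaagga
Atf7: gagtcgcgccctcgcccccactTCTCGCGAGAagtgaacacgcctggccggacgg
Kif20b: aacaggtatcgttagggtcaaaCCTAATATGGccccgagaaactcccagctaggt
In Mcm10 the YY1 word is followed directly by a CCAAT word that shares its last base. The Tasp1 stretch holds an ETS word and, further towards the start, a CCAAT word within 55 bases.

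The 6 libraries held 33248 to 52091 peaks, and the totals estimated from fold and −log10 p ran from 0.953 to 2.01 Mtags (megatags). Control replicate 2 (33248 peaks, 0.953 Mtags) and knockdown replicate 3 (41629 peaks, 1.19 Mtags) were shallower than the other 4 libraries (50543 to 52091 peaks, 1.89 to 2.01 Mtags). In the constitutive regions at a single gene's end the median number of tags at the summit was 11 in control replicate 2, 12 in knockdown replicate 3 and 18 or 19 in the other 4 libraries. Counts of regions therefore depend on these shallower libraries. Among the 12533 merged regions at exactly 1 gene's end in any library, 5631 (44.9%) were present in all 6 and 1530 (12.2%) in 5. Of those 1530, 802 lacked a peak in control replicate 2 and 429 in knockdown replicate 3, against 62 to 84 for each of the other 4 libraries. For comparison, 24.4% of all merged regions, 20.1% of gene-body regions and 61.9% of regions at 2 or more gene ends were present in all 6.

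The weakest regions inside the rule were those at Myrf, Ddx1, BC024063 and Selenon, each with a −log10 q of 1.31 in knockdown replicate 3, just above the value that a q of 0.05 gives. Median fold enrichment was 6.48 at Myrf, a membrane-bound transcription factor, 6.20 at Ddx1, an RNA helicase, 3.93 at BC024063 and 5.27 at Selenon, a selenoprotein of the endoplasmic reticulum. The strongest regions just outside the rule, present in 5 of 6 libraries, were those at Zfp384, Mns1, Chmp4b and Fbxo4, and all 4 lacked a peak in control replicate 2 only. Their median fold enrichment over the other 5 libraries was 16.01 at Zfp384, 13.4 at Mns1, 11.1 at Chmp4b and 16.5 at Fbxo4, with a smallest −log10 q of 22.2, 17.97, 17.9 and 17.5. The regions left out by a single library thus include some that were stronger than most of those kept.

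Almost all of the regions whose gene has a strand in the table lay at the transcription start. Of 4547 such regions, 4268 (93.9%) lay at the start, 244 (5.37%) at the end only and 35 (0.770%) at both. For the other 1084 regions the strand was not in the table. Among the 4303 regions at the start or at both, the median summit over the libraries lay within 100 bases of the nearest listed start in 2127 (49.4%), 100 to 300 bases upstream in 20.8% and 100 to 300 bases downstream in 10.2%. The summit was upstream in 2579 regions (59.9%), downstream in 1719 (39.9%) and at the start in 5. These counts include 173 summits (4.02%) more than 1000 bases upstream and 55 (1.28%) more than 1000 bases downstream. The place of a region was set by the annotated ends of the gene, and the distance by the listed starts. More summits thus fell before the start than after it, on the side where the promoter lies. By library, the median summit position was −40, −24 and −38 bases in the controls (replicates 1 to 3 in order) and −43, −38 and −33 bases in the knockdowns, with negative numbers upstream. The share of summits upstream was lowest in control replicate 2 (55.1%), and it was 57.9% in knockdown replicate 3 and 59.9% to 61.2% in the other 4. The part that the shallower depth of these libraries plays in this order was not tested.

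**Figure D1:**
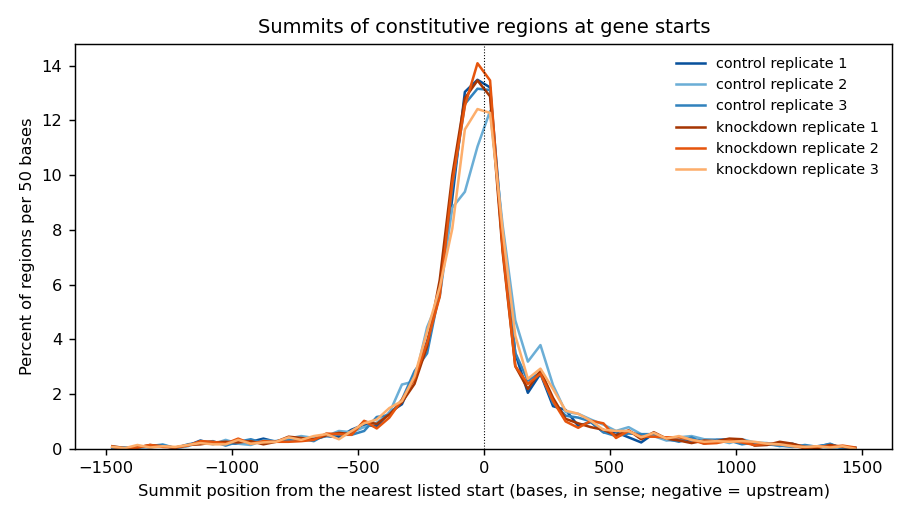
Position of peak summits from the nearest listed transcription start (bases, negative upstream, x axis) as a percentage of the 4303 constitutive regions at a gene start per 50 bases (y axis), with 1 line per library. All 6 lines peak next to the start, with more regions upstream (55.1% to 61.2% by library) than downstream.

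A transcription start of a long non-coding RNA lay within 1000 bases of 514 (12.04%) of the 4268 start regions and of 4 (1.64%) of the 244 end regions. The median merged width was 825 bases in start regions and 628.5 in end regions, and summits ranged over a median of 181 and 125.5 bases between libraries, values given with no test. The median fold enrichment was 8.54 at starts and 8.47 at ends. More than 1 peak in a single library was found in 15.98% of start regions and 5.74% of end regions.

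Over all 5631 regions the median fold enrichment ran from 3.54 to 40.3, with a median of 8.49, and the middle 90% of regions lay between 5.39 and 13.7. Between libraries the fold of a region varied with a median coefficient of variation of 18.7%. The highest value belonged to a region of 390 bases at the transcript end of Lars2 (chr9:123461798-123462187), which encodes the mitochondrial leucyl-tRNA synthetase. Its fold was 42.3, 34.0 and 39.9 in the controls and 40.7, 41.7 and 38.7 in the knockdowns, in the order of the replicate numbers. The groups overlapped, the shallow control replicate 2 was lowest, and the next highest median fold of any region was 20.7. How reads that map to several places were treated is not stated in the labels, so this value far above the rest is to be read with caution.

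The next regions by fold were at starts. At Gm10509 (chr17:21679397-21680177) fold enrichment was 22.9, 9.31 and 19.8 in the controls and 23.6, 21.6 and 15.2 in the knockdowns. At Ggct (chr6:54992573-54993211), a gamma-glutamylcyclotransferase of glutathione breakdown, it was 20.9, 17.5 and 19.5 in the controls and 21.7, 21.5 and 16.9 in the knockdowns. At Pitrm1 (chr13:6547872-6548561), a mitochondrial peptidase, it was 19.6, 12.1 and 19.9 in the controls and 19.6, 21.5 and 17.5 in the knockdowns. In each of these regions the groups overlapped and control replicate 2 or knockdown replicate 3 was lowest. The others of the 12 highest were the zinc finger genes Zfp959 (20.3), Zfp961 (19.2) and Zfp963 (17.4), Cfdp1 (18.7), Gm14410 (18.7), Glo1 (17.9), which encodes glyoxalase, Tasp1 (17.6), which encodes a threonine protease, and Kbtbd8 (17.3), an adaptor of a ubiquitin ligase, each given by its median fold enrichment.

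Merged width had a median of 811 bases, with the middle 90% between 482 and 1365. The widest region, 2382 bases at Cited2 (chr10:17722047-17724428), a transcriptional co-regulator, had a fold enrichment of 6.95, 5.10 and 7.60 in the controls and 7.04, 5.81 and 4.94 in the knockdowns. The other 5 of the 6 widest were at Klf16 (2239 bases), a KLF-family repressor, Reep5 (2238), which shapes the endoplasmic reticulum, Lbh (2116), Jmy (2008), an actin nucleator, and Kmt2e (1999), with median fold enrichments between 5.30 and 7.78. All 6 thus lay below the median fold of 8.49.

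At transcript ends, the regions with the highest fold after Lars2 were at Neu1 (17.0), a lysosomal sialidase, H6pd (15.4), a dehydrogenase of the endoplasmic reticulum, Slamf8 (14.3), Pkd1l1 (14.2) and Cdsn (14.03). At Neu1 fold enrichment was 19.6, 11.4 and 15.5 in the controls and 18.8, 18.3 and 15.6 in the knockdowns. The H6pd region had 14.5, 15.0 and 14.2 in the controls and 16.8, 17.6 and 15.9 in the knockdowns. H6pd thus had every knockdown value above every control value in fold, whereas the values of Neu1 overlapped. In percentile rank, which orders regions within a library but may not remove all effects of depth, the H6pd values overlapped too (92.4, 99.6 and 91.9 in the controls against 97.6, 98.3 and 99.3 in the knockdowns).

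Peaks in these regions were compared with those in the other constitutive classes over the same 6 libraries, using the strongest peak of each region and the median per library. Median peak width was 582, 485 and 607 bases in the controls and 560, 577 and 500 bases in the knockdowns. In gene-body regions it was 436, 382 and 457 bases in the controls and 425, 439 and 396 bases in the knockdowns. The difference was 129 ± 20.7 bases (SD, n = 6 libraries; wider at a single gene's end in 6 of 6). Against regions at 2 or more gene ends it was −57.3 ± 9.80 bases (SD, narrower in 6 of 6 libraries). A wide region touches a gene-end window more easily than a narrow one, so the rule itself favours this order of widths, which is given as a description with no test.

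Summits in regions at a single gene's end varied more between libraries than summits inside genes. The median distance of a library's summit from the median summit of the other libraries was 44, 57 and 44 bases in the controls and 43, 44 and 52 bases in the knockdowns, against 34, 45 and 34 and 34, 34 and 39 bases in gene-body regions. The difference was 10.7 ± 1.51 bases (SD, higher in 6 of 6 libraries; exact two-sided sign-flip p = 0.031, the smallest 6 libraries allow, adjusted p = 0.0469 over 6 comparisons). Against regions at 2 or more gene ends it was −0.75 ± 0.418 bases (lower in 5 of 6 libraries, exact p = 0.0625, adjusted p = 0.075), which did not pass. The 6 comparisons include those of width, which the rule favours, and the adjusted p-value of 0.0469 falls below 0.05 only with them. Each library's distance is taken from the summits of the other libraries. The 6 values thus depend on one another, whereas the sign flips treat them as separate. The peaks at gene ends were also the wider ones, and the part of width in the difference from gene bodies was not tested.

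Differences in fold enrichment between the classes were small and depended on the setting. The median fold per library at a single gene's end was 9.11, 6.95 and 9.12 in the controls and 9.18, 9.26 and 7.49 in the knockdowns. The difference from gene-body regions was −0.0739 ± 0.127 (SD, lower in 5 of 6 libraries, exact p = 0.25, adjusted p = 0.25), and without control replicate 2 it was 0.0482. Where each library's peaks had to cover 50% of a region it was 0.178, in the opposite direction, and passed (exact p = 0.031, adjusted p = 0.0375). Fold was lower than in regions at 2 or more gene ends, by a mean difference of −0.168 ± 0.0713 (lower in 6 of 6 libraries, exact p = 0.031, adjusted p = 0.0469). This call was lost at a minimum −log10 q of 5 (−0.000143), with lists of equal length (−0.0637) and with the cover of 50% (−0.105). Its adjusted p-value, too, falls below 0.05 only with the width comparisons among the 6.

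**Figure D2:**
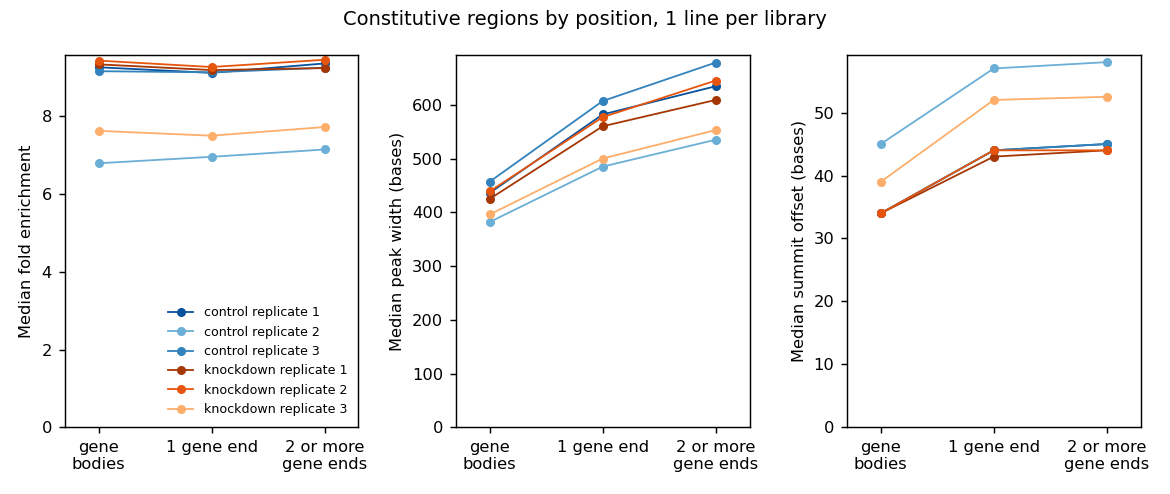
Median fold enrichment (left), median peak width in bases (middle) and median distance of summits from those of the other libraries in bases (right) for constitutive regions in gene bodies, at 1 gene end and at 2 or more gene ends, with 1 line per library. Width, which the choice of regions favours, and summit distance are higher at 1 gene end than in gene bodies in 6 of 6 libraries, whereas fold enrichment is nearly level.

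The 5631 regions belonged to 5487 of 21883 protein-coding genes (25.1%), and 144 genes held 2 regions while 0 held 3 or more. Of the genes with 2 regions and a known strand, 80 had 1 at the start and 1 at the end, 34 had both at the start and 3 both at the end. A further 2489 genes had a constitutive region only where it was shared with another gene's end, 4842 had a region in 1 to 5 libraries and 9065 had none. All shares below are to be read against the 25.1% of all protein-coding genes, and all median folds against 8.56, the median over the genes with a region.

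Genes of the machinery that every cell needs often had such a region. Among cytosolic aminoacyl-tRNA synthetases, which load tRNAs with amino acids, 13 of 20 (65.0%) had one, led by Lars (16.9), Tars (14.7) and Nars (12.8). The nuclear pore complex had 18 of 29 (62.1%), Mediator, which links transcription factors to RNA polymerase II, 19 of 31 (61.3%), and the core spliceosome 20 of 35 (57.1%). Nup54 (13.1), Med30 (14.1) and Snrpc (14.9) had the highest median fold in these lists. The proteasome had 17 of 31 (54.8%), led by Psmb2 (13.9), vesicle coats and the exocyst 14 of 26 (53.8%), led by Copz1 (17.2), core autophagy genes 14 of 30 (46.7%), led by Atg5 (13.6), DNA repair 17 of 39 (43.6%), and RNA polymerase II with its general factors 15 of 36 (41.7%), led by Polr2d (12.4). The TRiC chaperonin with prefoldin had 5 of 14 (35.7%), led by Cct4 (12.2), and there a further 6 genes had only a region shared with another gene's end.

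Replication factors of the MCM, ORC and GINS families and the clamp loader stood highest in fold. In this list 15 of 26 genes (57.7%) had a region, with a median fold of 12.2 and a range of 6.78 to 14.3. At Mcm10, which acts when replication forks are set up, fold enrichment was 15.4, 9.29 and 13.2 in the controls and 17.2, 17.2 and 9.27 in the knockdowns. Orc5, a subunit of the origin recognition complex, had 13.4, 9.05 and 14.2 in the controls and 15.2, 15.4 and 12.3 in the knockdowns. At each gene the folds of the groups overlapped and the lowest values came from the 2 shallow libraries. The percentile ranks of Orc5 did not overlap, with the knockdowns higher (mean difference 7.35 points). At Gins2, a GINS subunit, they did not overlap in the other direction (−10.4 points).

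Tissue-specific families were mostly without one. None of 1110 olfactory receptor genes and none of 353 vomeronasal receptor genes had a region of this kind: 20 olfactory receptor genes had a region in 1 to 5 libraries, and 1090 had none. Keratins had 5 of 53 (9.43%: Krt13, Krt16, Krt80, Krt81 and Krt88), and neuronal synapse genes 3 of 30 (10.0%: Camk2a, Nrxn2 and Vamp2). Solute carriers, a family of transporters with both general and tissue-bound members, had 94 of 375 (25.1%), the same share as all genes. Zinc finger genes named Zfp had 180 of 397 (45.3%), with a median fold of 9.33.

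Contractile genes of smooth muscle had 8 of 19 (42.1%), with a median fold of 8.07. The 8 were Acta2, Cald1, Lmod1, Smtn, Synm, Tpm1, Tpm2 and Vcl, while Actg2, Des, Flna, Myh11 and Synpo2 had no region at either end in any library. At Acta2 (chr19:34254977-34255853), which encodes the smooth muscle actin of the vessel wall, fold enrichment was 5.84, 4.02 and 5.83 in the controls and 5.91, 4.97 and 3.79 in the knockdowns. These are low values, at percentile ranks of 8.63, 3.60 and 8.70 in the controls and 9.09, 2.80 and 1.14 in the knockdowns. The region of Lmod1 (chr1:135367034-135367468), a leiomodin that nucleates actin filaments, lay at the transcript end and was the strongest of the list, with 14.9, 11.6 and 15.1 in the controls and 14.4, 13.1 and 13.0 in the knockdowns. In both genes the groups overlapped in fold.

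Collagens and other proteins of the vascular matrix had 12 of 30 (40.0%), and a further 15 had a region in 1 to 5 libraries only. Their median fold was 6.99. The region of Col6a2, a collagen VI chain, had 12.8, 8.64 and 12.1 in the controls and 14.01, 10.2 and 10.9 in the knockdowns. At Postn, which encodes periostin, it was 15.4, 8.64 and 14.2 in the controls and 9.57, 11.6 and 6.66 in the knockdowns. The percentile ranks of Postn did not overlap, with 94.9, 75.9 and 91.9 in the controls and 52.9, 73.9 and 34.3 in the knockdowns, whereas the fold values did.

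As a check of the labelled cell type, marker lists were counted the same way. Smooth muscle markers had 5 of 10 with a region (Acta2, Cald1, Lmod1, Smtn and Tpm2), endothelial markers 0 of 8, epithelial markers 0 of 8 and fibroblast markers 1 of 8 (Col1a2, median fold 6.13). A region in 1 to 5 libraries only was found at 2 smooth muscle, 3 endothelial, 3 fibroblast and 0 epithelial markers. Of the defining smooth muscle genes, Myh11 and Des had no region at an end. Open chromatin at a gene's end is not its expression, and cultured smooth muscle cells and fibroblasts share many of these genes.

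**Figure D3:**
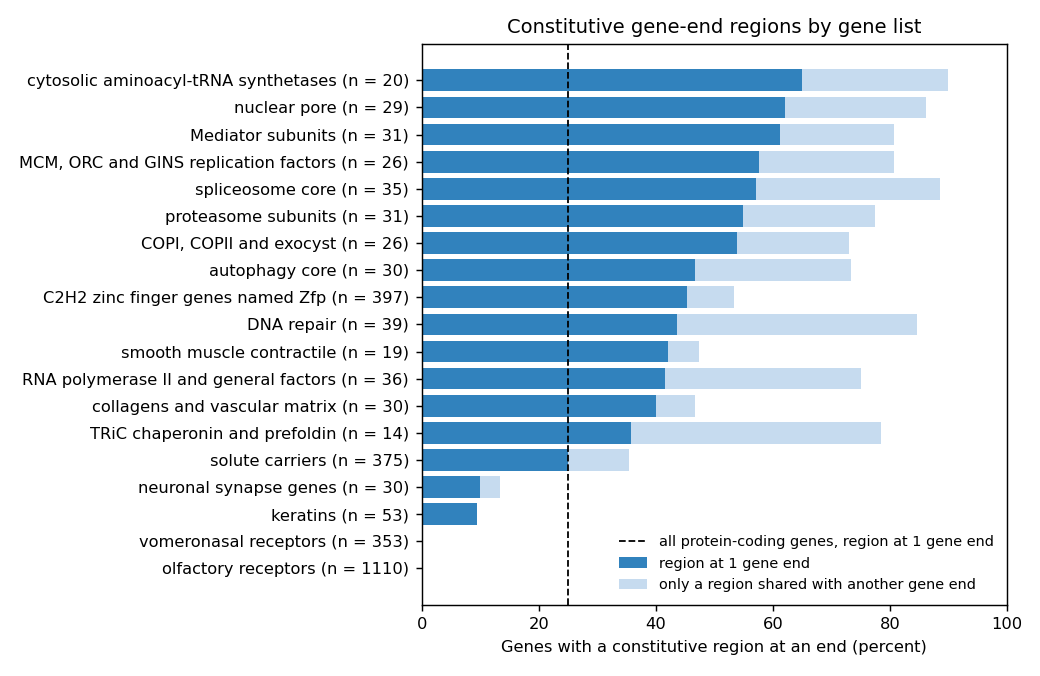
Percentage of the genes of each list (x axis) with a constitutive region at a single gene's end (dark bars) or only with one shared with another gene's end (light bars), and the share of all protein-coding genes with a region of the first kind (dashed line, 25.1%). Lists of general cell machinery reach up to 65.0%, whereas olfactory and vomeronasal receptor genes have none.

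Promoter sequence was compared over 17491 genes with 1 promoter each of 300 bases, 250 before and 50 after the start. A constitutive region at a single gene's end overlapped 3942 of them, 8424 overlapped no peak of any library and 5125 overlapped another peak. The other peaks include constitutive regions shared with another gene's end. The median GC content was 61.7% in the first set and 48.7% in promoters with no peak, against 56.3% over all. The ratio of observed to expected CpG was 0.794 against 0.229, and it exceeded 0.6 in 81.0% against 17.2% of promoters (48.6% of all). Promoters with another peak were close to the first set (61.7% GC, 75.1% above the ratio of 0.6). High GC and CpG were thus shared by promoters with such a region and with another peak, a set that is partly constitutive itself.

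Sequence words were searched on both strands, and none of the 15 words contains another. The GC box GGGCGG was in 71.6% of promoters with a constitutive region, 22.9% of those with no peak and 46.5% of all. The ETS word CCGGAAG was in 20.6%, 3.53% and 11.9%, and the NRF1 word in 2.46%, 0.297% and 1.31%, in the same order. These words are themselves rich in G and C. The YY1 word AAGATGGC was in 4.97%, 1.35% and 3.22%, the CRE word TGACGTCA, bound by CREB and its relatives, in 3.83%, 0.938% and 2.36%, and the E-box CACGTG in 10.3%, 4.96% and 7.91%. The ZBTB33 word was in 1.17%, 0.190% and 0.726%. The ZNF143 word had the largest ratio of the 15, in 38 of 3942 promoters (0.964%) against 3 of 8424 (0.0356%), with 0.452% over all. With so few matches its ratio is imprecise. Promoters with another peak were close to those with a constitutive region, with 66.1% for the GC box, 19.1% for ETS, 2.09% for NRF1, 4.96% for YY1, 3.55% for CRE and 0.741% for ZNF143. For the E-box (10.9%) and ZBTB33 (1.27%) their share was the larger one.

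Other words were less frequent in promoters with a constitutive region than in those with no peak. The TATA box TATAAA was in 6.29% of promoters with a constitutive region, 20.9% of those with no peak and 13.3% of all. The AT-rich words ATTAAA and ATCAAA, searched because Arid3a is known to bind AT-rich DNA, were in 6.60% and 6.42% against 18.1% and 14.5%, with 12.2% and 10.4% over all. The AP-1 word TGANTCA was in 4.52%, 8.95% and 7.06%, and the TEAD word GGAATG in 11.4%, 15.7% and 13.4%. The CArG word was in 3 promoters with a constitutive region (0.0761%), 16 with no peak (0.190%) and 20 in all (0.114%). Only the spelling shown for Kif20b was searched, so other spellings of the CArG box were not counted. These counts thus do not give the frequency of sites of serum response factor. Promoters with another peak were again close, with 6.30% for the TATA box, 6.83% for ATTAAA, 6.58% for ATCAAA, 5.89% for AP-1 and 11.1% for TEAD, and the CArG word was in 1 of them. These shares thus differed between promoters with and without a peak. They differed little between promoters with a region at a single gene's end and those with another peak. The other peaks include shared constitutive regions, so constitutive and other regions were not set apart here. GC content moves with all of these shares, and its part was not tested except for CCAAT below.

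The share of promoters with the NF-Y word CCAAT was larger at higher fold enrichment. The word was in 44.5% of promoters with a constitutive region, 37.6% of those with no peak, 37.2% of those with another peak and 39.0% of all. Split by median fold into 4 groups of equal size, promoters with a constitutive region held it in 30.7% (fold 3.54 to 7.06), 38.3% (7.07 to 8.65), 45.7% (8.65 to 10.7) and 63.2% (10.7 to 20.7). The GC box stayed between 67.5% and 73.9% over the same 4 groups, and the ETS word was in 15.4%, 21.4%, 23.6% and 21.9%. The 5 promoters printed whole above all come from the highest group.

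GC content fell a little with fold, from a median of 63.0% in the lowest fold group to 60.0% in the highest, so the promoters were divided at their median of 61.7%. Below it, CCAAT was in 34.1%, 43.3%, 49.1% and 65.7% from the lowest to the highest fold group, and in 40.3% of promoters with no peak. At or above it, CCAAT was in 28.1%, 34.0%, 42.3% and 59.8%, and in 22.1% of promoters with no peak. The order of the fold groups was thus the same at low and at high GC.

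Regions whose promoter holds CCAAT had the higher fold in 6 of 6 libraries. The median over 1753 regions with the word and 2189 without was 10.0 against 8.64 in control replicate 1, 7.65 against 6.63 in control replicate 2 and 10.0 against 8.78 in control replicate 3. In knockdown replicates 1 to 3 it was 10.3 against 8.69, 10.2 against 8.79 and 8.22 against 7.09. The gap was present in the shallow and in the deep libraries of both groups. With the median over libraries per region, it was 9.44 with the word and 8.08 without. The ZNF143 word (9.95 against 8.63, 38 regions with it), the ETS word (8.97 against 8.53), the AP-1 word (9.09 against 8.64) and the AT-rich word ATCAAA (9.04 against 8.62) also had the higher fold in 6 of 6 libraries. The AT-rich word ATTAAA had the higher fold in 0 of 6 (8.24 against 8.67). No test was made of these values, since the regions of a library are not replicates.

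Matches to CCAAT were most frequent 51 to 100 bases before the start. In the highest fold group there were 40.6 matches per 100 promoters in that stretch, against 10.95 in the lowest and 13.4 in promoters with no peak. From the start to 49 bases after it there were 7.00 per 100 promoters in the highest fold group and 3.14 in the lowest. Among promoters of Zfp genes with a constitutive region, 85 of 145 (58.6%) held CCAAT, against 1668 of 3797 (43.9%) for the other genes. Of the Zfp promoters, 59 lay in the highest fold group and 23 in the lowest, against 927 and 963 of the others. CCAAT was in 76.3% against 62.4% in the highest group and in 34.8% against 30.6% in the lowest. A match to a word is a description of the letters and does not show that the factor is bound.

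**Figure D4:**
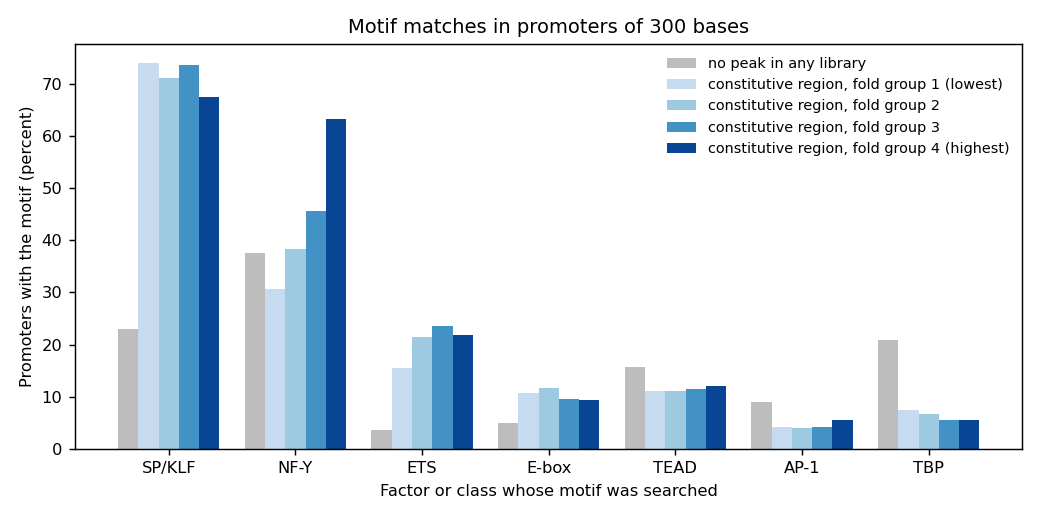
Percentage of promoters of 300 bases (y axis) that hold the word searched for each factor or class (x axis), for promoters with no peak in any library (grey) and for those with a constitutive region in 4 groups of equal size by its median fold (light to dark blue). The NF-Y word rises from 30.7% to 63.2% over the groups, whereas the SP/KLF word stays between 67.5% and 73.9%.

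Control and knockdown libraries were compared by numbers per library within these regions, with two-sided exact permutation of the group labels (20 relabellings of 3 against 3), whose smallest p is 0.1. Of a library's peaks, 11.6%, 17.5% and 11.3% lay in the regions in the controls and 11.8%, 11.6% and 14.1% in the knockdowns. The shallow control replicate 2 and knockdown replicate 3 were highest, and the groups overlapped (13.5% ± 3.47 against 12.5% ± 1.397, SD, n = 3 each; exact p = 0.9, adjusted p = 0.9 over 4 numbers). The rule requires a peak of every library in each region, and 5807 to 5975 peaks per library lay in them. The share thus mainly follows the length of a library's peak list, and its p-value says little about the groups. The median width of all peaks in the regions was 548 ± 60.5 against 534 ± 38.2 bases (exact p = 0.7, n = 3 each, adjusted p = 0.9). The median distance of summits from the nearest gene end was 147 ± 13.7 against 144 ± 9.87 bases (exact p = 0.6, adjusted p = 0.9), and that from the summits of the other libraries 48.3 ± 7.51 against 46.3 ± 4.93 bases (exact p = 0.7, adjusted p = 0.9). No difference between the groups was detectable in these numbers. By rule each region overlaps a gene-end window, which limits how far its summits can lie from that end in any library. The last number is measured between libraries, so its values depend on one another. Without control replicate 2, the differences in share and in both distances changed sign, and without control replicate 3 or knockdown replicate 3 the difference in width did.

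To compare single regions, fold enrichment was turned into a percentile rank within each library over the 20742 constitutive regions, and a region was counted where the ranks of the groups did not overlap. All 3 knockdown libraries ranked above all 3 controls in 216 of the 5631 regions (3.84%), against a background of 4.99% of all constitutive regions. The reverse was found in 313 (5.56%), against a background of 4.97%. Gene-body regions had 5.65% and 4.87%. The shares of the regions at a single gene's end are near the background, and no single region was tested, since exact permutation of 3 libraries against 3 cannot give a p below 0.1. Leaving out any 1 library loosens the condition. It gave 449 to 624 regions with knockdown ranks higher (7.86% to 9.71%, against 9.61% to 10.4% of all constitutive regions). With control ranks higher it gave 581 to 722 (10.1% to 11.9%, against 9.69% to 10.4%). Without control replicate 2, 624 (9.71%) and 646 (10.1%) were counted, against 10.4% and 9.97% of all constitutive regions.

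Among regions with a −log10 q of 5 or more in all 6 libraries, the widest gaps in mean rank with the knockdowns higher were at Usp40, Psma3, S1pr1, Sec24a, Ldah and Habp2, with differences of 43.4, 40.4, 39.7, 39.1, 38.9 and 37.6 percentile points. At Usp40 (chr1:88007872-88008622), a deubiquitinase, fold enrichment was 7.46, 5.89 and 5.45 in the controls and 12.5, 9.96 and 7.99 in the knockdowns. At S1pr1 (chr3:115714661-115715389), a receptor for sphingosine 1-phosphate with known roles in the vessel wall, it was 8.20, 5.74 and 9.92 in the controls and 11.9, 12.05 and 11.2 in the knockdowns. In both regions every knockdown value was above every control value, also in fold. At Psma3 (chr12:70968053-70968754), a proteasome subunit, it was 6.54, 5.82 and 6.10 in the controls and 8.77, 11.4 and 8.45 in the knockdowns, and the summit position from the nearest start in the promoter table was −6280 bases.

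With the controls higher and the same minimum, the widest gaps were at Klhl8, Ccnt2, Zdhhc17, Aldh3a1, Ppp1r3e and Rpap3, with differences of −40.0, −39.6, −39.5, −38.6, −38.1 and −38.1 percentile points. At Ccnt2 (chr1:127773560-127774665), a cyclin of the elongation factor P-TEFb, fold enrichment was 10.3, 8.05 and 10.2 in the controls and 6.32, 8.11 and 6.35 in the knockdowns. At Rpap3 (chr15:97705380-97706151), a cochaperone in the assembly of RNA polymerases, it was 14.1, 9.30 and 10.6 in the controls and 9.48, 7.83 and 7.32 in the knockdowns. In both regions the folds of the groups overlapped, and the ranks within a library did not. These 12 were chosen for their gaps, so the values describe them and carry no test. Usp40, Habp2 and Zdhhc17 were no longer kept with lists of equal length, and Psma3 and Habp2 with the window of 500 bases. With the cover of 50% of a region, Usp40, Sec24a, Ldah, Habp2, Zdhhc17 and Ppp1r3e were no longer kept. The other regions of the 12 were kept in these settings.

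**Figure D5:**
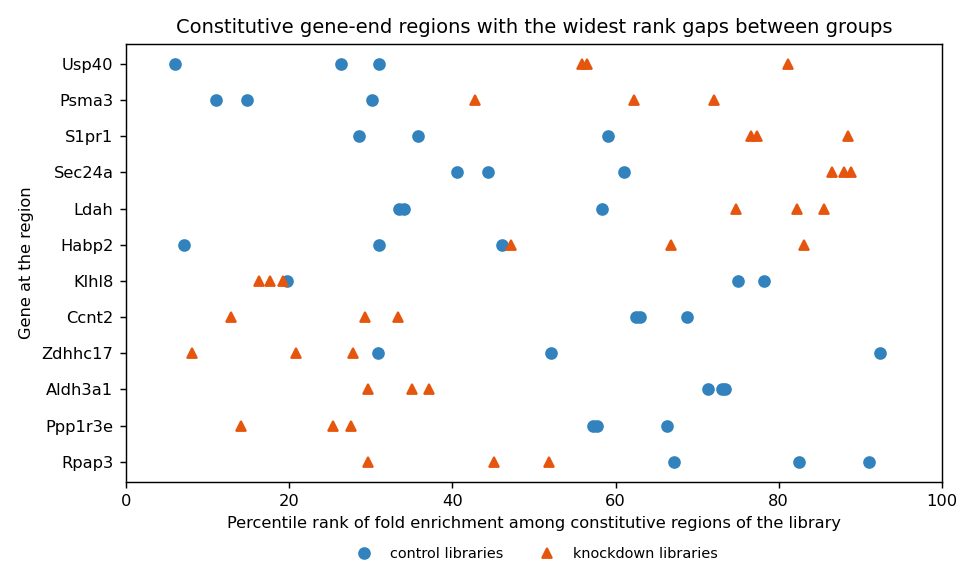
Percentile rank of fold enrichment among the 20742 constitutive regions of a library (x axis) for the 12 constitutive gene-end regions with the widest gaps between the groups (y axis), with 1 point per library (circles control, triangles knockdown). The points of the groups do not overlap in any of the 12, by choice, and at Habp2 and Klhl8 the nearest points of the groups almost touch.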

How the data were processed

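ATAC-seq peak lists, 1 per library, were compared in 3 control and 3 knockdown libraries of mouse vascular smooth muscle cells. Reads were processed by the authors with Bowtie2, Picard and MACS2 on mm10, per the submitters' processing notes. Versions, parameters, duplicate removal and a Tn5 offset: not given in the sources used here. Without an offset, summits would shift by a few bases, and duplicates left in would raise tags where complexity is low. The deposited values per peak are positions, a summit, a fold enrichment (a ratio to the local background of the same library), −log10 p and −log10 q values, and a score that is the −log10 q times 10. They are the authors' own values and were used to describe, rank and filter peaks within a list, or as medians per library. The deposited lists were called per library.

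Peaks on chromosomes 1 to 19, X and Y were merged where they shared at least 1 base. Genes came from a RefSeq table of GRCm38.p6, the assembly of mm10; strand came from the RefSeq promoter table, which held 17491 of the 21883 protein-coding genes. Tags at the summit (1 to 600 tried) were recovered from fold and −log10 p within 0.001 under the Poisson model of MACS2, and totals assume its default mouse genome size, so they serve to rank libraries by depth. Percentile ranks of fold were taken within each library. The tests were exact permutations over 20 relabellings and exact sign flips over 6 libraries, with Benjamini-Hochberg adjustment over 4 and 6 comparisons and a threshold of 0.05. The scripts were tested on simulated data. Python 3.11.15, NumPy 2.4.6, pandas 2.3.3, SciPy 1.17.1 and matplotlib 3.10.9 were used.

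The regions, gene lists, words and tests were chosen with earlier results of these data known. Named regions are the 12 with the highest median fold, the 6 widest, the 3 highest of each gene list and the 6 highest at transcript ends. The 4 just inside and the 4 just outside the rule are named too. So are the 6 with the widest rank gap in each direction, among those with a −log10 q of 5 or more in all 6 libraries. Further genes of the contractile and marker lists are named as their counts require. Alternatives were a stricter −log10 q of 5, lists of equal length, windows of 500 and 2000 bases, a cover of 50% of a region by peaks, ranks of −log10 q, each library left out in turn and a replicate block. Regions between genes were counted but not compared. Promoters on chromosome 18 were not analysed here. The named region of 1 gene list and the result of 1 marker list are not reported here.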

Additional observations from a re-analysis of the deposited data

How the results depend on the processing

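The number of regions was 3689 at a stricter −log10 q (minimum 5) and 2937 where each library's peaks had to cover 50% of the region, and it stayed within 1.5 times of 5631 under the other alternatives; these 2 settings kept 66.2% and 52.7% of the 5487 genes. Regions with knockdown ranks higher numbered 103 with the cover (3.51%, against 4.77% of all constitutive regions in that setting). Without 1 library they numbered 449 to 624 (7.86% to 9.71%, against 9.61% to 10.4%). Those with control ranks higher numbered 200 with the stricter q (5.42% against 4.87%) and 184 with the cover (6.26% against 5.09%). Without 1 library they numbered 581 to 722 (10.1% to 11.9%, against 9.69% to 10.4%). A setting chosen after seeing the data, the 4 deepest libraries, gave 1176 and 1267 (16.3% and 17.5%), near the background of 17.2% and 17.0%. Deviations of same-numbered libraries correlated at 0.0414, −0.0542 and −0.0521 over regions. For other pairs of a control and a knockdown library the correlation ran from −0.0651 to 0.101, highest between the 2 shallow libraries. Whether same-numbered libraries share a culture cannot be told from these values. With the numbers as a replicate block, the counts were 598 and 790 (10.6% and 14.03% of the regions, against 12.3% and 12.3% of all constitutive regions), where 3 pairs allow no p below 0.25. The difference in share of peaks between the groups, −0.945 points, was 0.0211 with lists of equal length, 0.328 in the 4 deepest libraries and −2.04 to 1.21 without 1 library. Without 1 library the difference in peak width ranged from −48.3 to 10.3 bases, in distance from a gene end from −10.3 to 3.17 and in summit distance between libraries from −6.0 to 1.79. Fold against gene bodies was 0.00327 with the window of 500 bases, 0.178 with the cover (passing, adjusted p = 0.0375 by exact sign flips), 0.146 in the 4 deepest libraries and −0.0464 to 0.0482 without 1 library. Fold against 2 or more gene ends was −0.000143 with the stricter q, −0.0637 with lists of equal length, −0.105 with the cover, −0.409 in the 4 deepest libraries and −0.297 to −0.175 without 1 library, none of them passing. Width against gene bodies was 158 bases in the 4 deepest libraries and 126.4 to 144.6 without 1 library, and summit distance 9.25 and 11.7 to 13.2. Width against 2 or more gene ends was −65 bases in the 4 deepest and −63.7 to −55.8 without 1 library. Summit distance against 2 or more gene ends was −2.83 with the stricter q, −2.83 with lists of equal length and −3.67 with the cover. All of these now passed, with the widths among the 6 comparisons and with values per library that depend on one another. Summit distance was 0.167 with the window of 2000 bases and −1.2 to 0.45 without 1 library. Calls lost without a library follow from the smallest p that 5 libraries allow, 0.0625. The gap in CCAAT between the highest and lowest of the 4 fold groups was 32.4 points, and 28.6 to 34.6 over the alternatives. The share at transcript ends was 5.37%, 3.75% with the window of 500 bases and 8.57% with that of 2000 bases. With the window of 500 bases the named end regions of Lmod1, Neu1, Slamf8 and Pkd1l1 were no longer kept. Depth limits which weak regions a list can hold.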

Other observations

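The share of genes with a constitutive region at a single gene's end differed between chromosomes. It was highest on chromosomes 15 (34.1%), 18 (31.96%) and 10 (31.9%), against 25.1% of all protein-coding genes. On the X chromosome 136 of 966 genes (14.1%) had one and on chromosome 7, 17.2%. The Y chromosome had 0 of 256. Chromosome 7 carries many olfactory and vomeronasal receptor genes, and the part of such families in these shares was not tested.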
